A study of Mus musculus with 6 samples.

Results

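The genes described are those of red blood cells and their precursors: the adult globins Hba-a1, Hba-a2, Hbb-bs and Hbb-bt, the haem enzyme Alas2, the membrane exchanger Slc4a1, the globin chaperone Ahsp, the transcription factor Klf1 and the erythropoietin receptor Epor. They were taken by symbol from a list of 9 names, of which 8 were found among the 47643 genes of the table; Ahsp was not analysed here. The samples came from tumors in the livers of LAP-tTA-tetO-MYC mice on the FVB/N background. Here the LAP promoter drives the tetracycline transactivator in hepatocytes, which turns on a MYC transgene there unless doxycycline is given. All mice had doxycycline at 100 mg/L in the drinking water up to 4 weeks of age, which kept MYC off, and then 8 weeks without it. The 3 GSK3326595 samples came after 2 further weeks on 50 mg/kg/day of this inhibitor of the arginine methyltransferase PRMT5, and the 3 vehicle samples after 2 weeks on vehicle. The mice's age at collection beyond these times, their sex and whether blood was flushed from the liver are not given in the sources used here.

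Red blood cells arise from erythroblasts, which switch on globin and haem genes under the transcription factors GATA1 and KLF1 and survive on erythropoietin. The nucleus is then lost, and the young red cells, or reticulocytes, still carry RNA that is dominated by alpha and beta globin. Globin RNA in a tissue therefore comes with blood in its vessels, whereas transcription factor RNA points to nucleated precursors; the liver makes red cells before birth and can do so again in adult mice under stress. In bulk samples such as these, fewer cells of a type and less RNA per cell cannot be told apart.

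The libraries held 25814300 to 32427500 expected counts (reads assigned to genes by estimate) in GSK3326595 and 31480000 to 33621100 in vehicle. The 10 hepatocyte markers, among them Alb and Hnf4a, summed to 14002 to 41923 CPM in GSK3326595 and 27544 to 61204 CPM in vehicle, so the labelled tissue's defining markers were present in all 6 libraries; CPM is the count scaled to library size after TMM, edgeR's correction for library composition. By edgeR 0 of the 10 had an unadjusted p under 0.05, against 9.26% of all genes tested, and their median log2 difference was -0.16. Nothing in the labels ties each replicate to its own animal, and the p-values below therefore cover variation among these 6 libraries, which may be technical. GSK3326595 replicate 2 stood apart on the first principal component, at 103.1 against -50.2 to 9.37 for the other 5 libraries. The X-inactivation RNA Xist had 0.417 to 3.25 CPM in GSK3326595 and 17.0 to 27.4 CPM in vehicle, while the Y-linked gene Eif2s3y had 40.6 to 48.4 and 53.7 to 60.7 CPM; the part of this difference in the values below was not tested.

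The globin copies come in pairs with nearly identical coding sequences, which are shown first. In GENCODE vM21 on mm10, Hba-a1 lies at chr11:32283511-32284465 (plus strand) and Hba-a2 at chr11:32296489-32297298 (plus strand), while Hbb-bs lies at chr7:103826534-103828096 and Hbb-bt at chr7:103812524-103813996 (both minus strand). The 426 coding bases of the alpha pair, without the stop codon, differ at 1 base, C381T, and the 441 coding bases of the beta pair differ at 1 base, C417T (positions counted from the first coding base; Hba-a1 or Hbb-bs first). Of the stretches of 50 coding bases, 46 of 377 in Hba-a1 are not in Hba-a2, and 25 of 392 in Hbb-bs are not in Hbb-bt. Reads that lie wholly in shared stretches cannot be assigned to 1 copy by sequence, so the sum of each pair is given beside the copies; the untranslated parts were not compared. The capital letter marks the base that differs, in coding bases 359 to 403 of the alpha genes and 395 to 439 of the beta genes.
Hba-a1: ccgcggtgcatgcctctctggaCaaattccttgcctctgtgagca
Hba-a2: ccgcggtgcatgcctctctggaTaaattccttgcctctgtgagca
Hbb-bs: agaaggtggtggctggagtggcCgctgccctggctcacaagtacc
Hbb-bt: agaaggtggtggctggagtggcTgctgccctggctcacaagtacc

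The globins rose and fell together between libraries, and promoters of Hba-a1, Hbb-bs, Hbb-bt and Klf1 are shown to set their elements side by side. Promoters of 7 of the 8 genes were in the RefSeq table (GRCm38.p6, from C57BL/6J mice); Slc4a1 was not. The 250 bases upstream of each RefSeq start were searched on both strands for 4 motifs. These were CACCC, the core of the sites that KLF1 binds; GATAA, which factors of the GATA1 family bind; CCAAT, a common promoter box; and ATATAA, which resembles a TATA box. No match of one motif overlapped a match of another in these promoters. All 4 globin promoters held all 4 motifs, as did 0.466% of 32851 promoters of the same length. Singly, CACCC was in 52.0% of those promoters, GATAA in 22.6%, CCAAT in 33.8% and ATATAA in 9.10%. The Alas2, Klf1 and Epor promoters held CACCC and GATAA, Klf1 held CCAAT as well, and ATATAA was in none of these 3. The whole table entries of Hba-a1 and Hba-a2, which run on past the start, were identical over 297 of 297 bases once shifted by 3. Shown are the last 120 bases before the RefSeq start, with the motifs in capitals. The GATAA matches of Hba-a1, Hbb-bs and Hbb-bt lie outside this stretch, at 182, 209 and 204 bases upstream. GENCODE draws the starts of all 4 genes shown further upstream. They are chr11:32283552-32283671 (plus) for Hba-a1, chr7:103827929-103828048 (minus) for Hbb-bs, chr7:103813924-103814043 (minus) for Hbb-bt and chr8:84901862-84901981 (plus) for Klf1.
Hba-a1: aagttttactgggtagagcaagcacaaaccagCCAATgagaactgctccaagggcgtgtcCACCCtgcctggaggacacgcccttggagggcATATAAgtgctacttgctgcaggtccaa
Hbb-bs: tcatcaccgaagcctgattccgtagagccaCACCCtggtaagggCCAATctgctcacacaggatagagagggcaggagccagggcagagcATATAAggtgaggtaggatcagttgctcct
Hbb-bt: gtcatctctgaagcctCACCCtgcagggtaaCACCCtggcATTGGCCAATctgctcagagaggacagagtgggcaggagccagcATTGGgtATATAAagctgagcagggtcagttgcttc
Klf1: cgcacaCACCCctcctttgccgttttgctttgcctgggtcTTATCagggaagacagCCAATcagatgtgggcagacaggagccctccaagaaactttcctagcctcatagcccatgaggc

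The comparison asks whether blood content or red cell formation differed between GSK3326595 and vehicle tumors. All 8 genes passed the filter on low counts, and 0 of 8 passed the threshold of an adjusted p of 0.05 by edgeR, where 0% of 17012 genes did; limma-voom also called 0 of 8, against 0% of genes. DESeq2, which called 1.69% of genes, called none of the other 7 and gave no p-value for Slc4a1. At an unadjusted p under 0.05 by edgeR, 1 of 8 passed, against 9.26% of all genes; it was lower (Hbb-bt), against 3.81%, and 0 of 8 were higher, against 5.45%. The GSK3326595 and vehicle libraries overlapped in all 8 genes, while they did not overlap in 14.4% of all genes tested, 6.72% being higher and 7.68% lower. The median log2 difference (GSK3326595 minus vehicle) of the 8 was -0.25, against 0.03 over all genes tested. Across the treatment labels, GSK3326595 replicate 2 and vehicle replicate 3 held the 2 highest levels of 5 of the 8 genes, as of 4.51% of all genes tested. The pair was picked after these levels were seen, so this count is a description and carries no test. Hba-a1 and Hbb-bs, both among the 5, rose and fell together. Klf1 was among the 5 on 65 and 66 counts, against 59 and 54 in vehicle replicates 1 and 2.

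**Figure D1:**
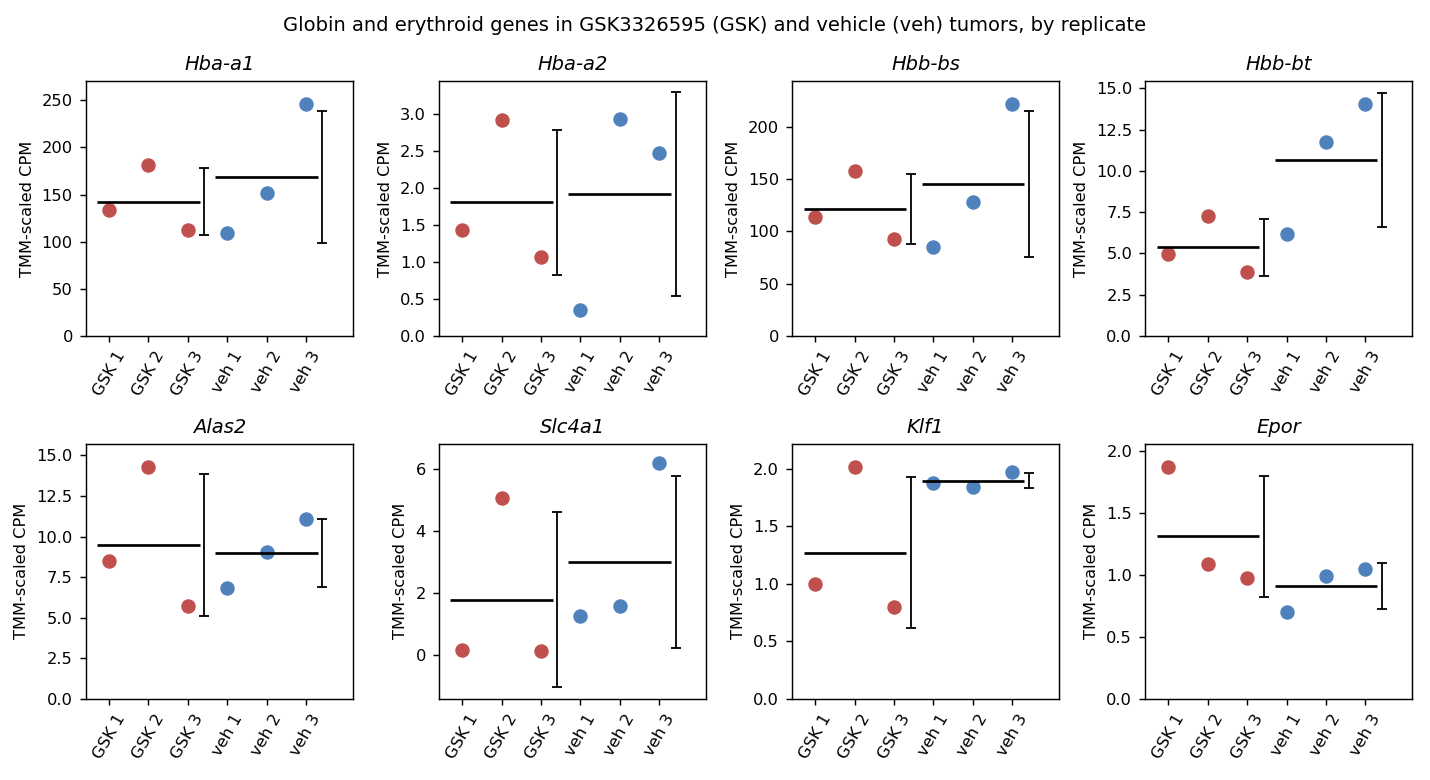
Levels of the 8 genes in each library, in TMM-scaled CPM, with GSK3326595 replicates in red and vehicle replicates in blue. Horizontal lines are group means and bars beside them are 1 SD (n = 3 each). The groups overlap in every panel, and vehicle replicate 3 is highest for Hba-a1, Hbb-bs, Hbb-bt and Slc4a1.

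Almost all alpha globin counts were assigned to Hba-a1, which encodes the oxygen-binding alpha chain of adult haemoglobin. Hba-a1 had 133, 182 and 112 CPM in GSK3326595 replicates 1, 2 and 3, against 109, 152 and 246 CPM in vehicle replicates 1, 2 and 3. The lowest and the highest library were both vehicle, and the GSK3326595 libraries lay between them. The level was 142 ± 35.7 CPM in GSK3326595 and 169 ± 69.8 CPM in vehicle (SD, n = 3 each). By edgeR the log2 difference came to -0.25 ± 0.34 (SE), with an adjusted p of 0.876. Hba-a2, the second alpha copy, had 1.44, 2.91 and 1.06 CPM in GSK3326595 against 0.354, 2.94 and 2.48 CPM in vehicle (log2 difference -0.09 ± 0.76, edgeR adjusted p = 0.986). It took 1.19 ± 0.338% of the alpha counts in GSK3326595 and 1.07 ± 0.791% in vehicle, and the groups overlapped. The part of read assignment between these near-identical copies in this split was not tested. With both copies summed into 1 row, alpha globin had a log2 difference of -0.24 ± 0.34 (edgeR adjusted p = 0.880).

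Beta globin followed the same order of libraries. Hbb-bs, the beta copy with most of the assigned counts, had 114, 158 and 92.2 CPM in GSK3326595 against 85.5, 128 and 221 CPM in vehicle. Vehicle again held both extremes. Its log2 difference was -0.26 ± 0.38 (edgeR adjusted p = 0.891). The second beta copy, Hbb-bt, had 4.99, 7.26 and 3.87 CPM in GSK3326595 and 6.19, 11.7 and 14.0 CPM in vehicle. Its means were 5.37 ± 1.73 and 10.7 ± 4.03 CPM (SD, n = 3 each), with only vehicle replicate 1 inside the GSK3326595 range. The log2 difference was -0.99 ± 0.40, with an unadjusted p of 0.0424 and an edgeR adjusted p of 0.527 (DESeq2 adjusted p = 0.296). Both beta copies summed gave -0.30 ± 0.38 (edgeR adjusted p = 0.859).

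Without vehicle replicate 3, the library richest in globin, the log2 differences turned to 0.16 for Hba-a1 and 0.22 for Hbb-bs. All 4 globins together made up 0.0260, 0.0348 and 0.0225% of the counts in GSK3326595 and 0.0188, 0.0275 and 0.0504% in vehicle. The groups overlapped, with means of 0.0278 ± 0.00634% and 0.0322 ± 0.0163% (SD, n = 3 each) and a ratio of 0.861. Leaving out vehicle replicate 3 put that ratio at 1.20, and leaving out vehicle replicate 1 put it at 0.713.

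The ratio of alpha to beta counts was similar in all libraries, while the split between the beta copies was not. Alpha over beta was 1.14, 1.12 and 1.18 in GSK3326595 against 1.20, 1.11 and 1.05 in vehicle, within a factor of 1.14 over all 6 libraries although globin itself ranged over a factor of 2.40 in CPM. The share of Hbb-bt in the beta counts was 4.21, 4.40 and 4.02% in GSK3326595, against 6.76, 8.41 and 5.96% in vehicle. Every GSK3326595 library lay below every vehicle library in that share (4.21 ± 0.188% against 7.04 ± 1.25%, SD, n = 3 each). It was singled out after its values were seen and carries no test. The copies differ at a single coding base, the reference is of another strain than these FVB/N mice, and the part of read assignment in this share was not tested.

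The further globins of the mouse alpha and beta clusters had few counts or none. The embryonic genes Hba-x, Hbb-y and Hbb-bh1, and Hbb-bh2, Hbb-bh0 and Hbq1a, had 0 counts in all 6 libraries. A count of 0 allows up to 3 counts, for counting error only. Scaled to total counts without TMM, that is 0.0925 to 0.116 CPM in GSK3326595 and 0.0892 to 0.0953 CPM in vehicle. Hbq1b had 0 to 3 counts in a library, and Hba-a3 was not analysed here. Cygb, a globin of stellate cells and fibroblasts and the one further globin tested, differed by 0.85 ± 0.42 on the log2 scale (edgeR adjusted p = 0.582).

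**Figure D2:**
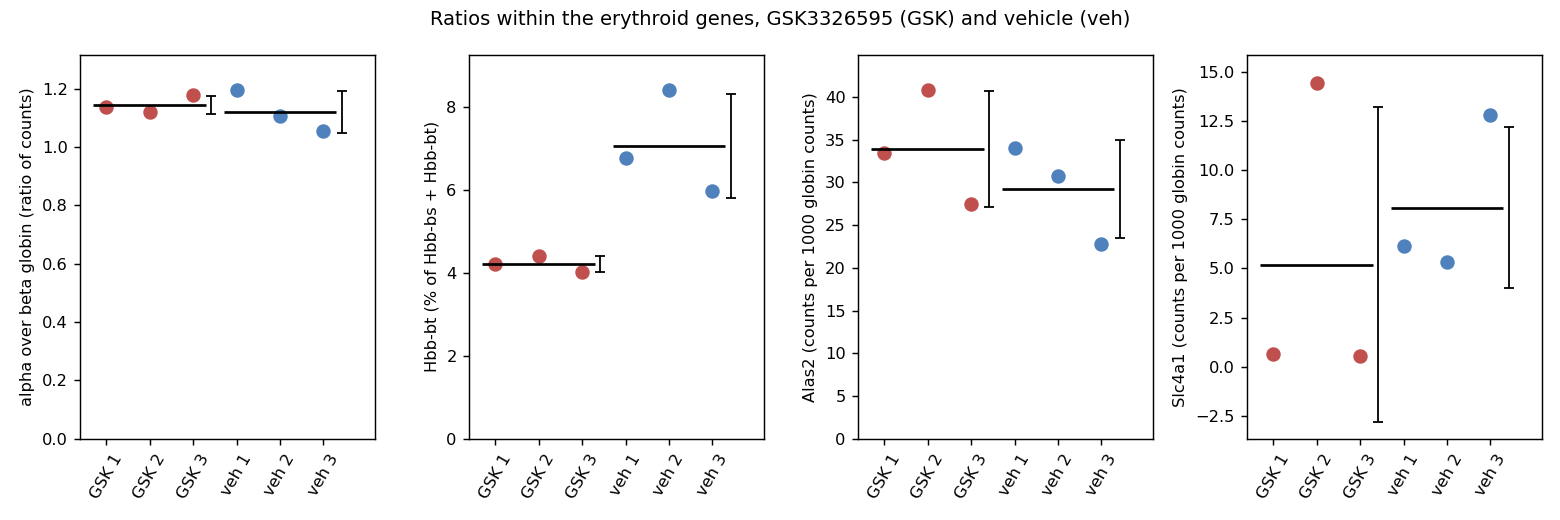
Ratios of counts within each library: alpha over beta globin, the percent of beta globin counts in Hbb-bt, and Alas2 and Slc4a1 counts per 1000 globin counts. GSK3326595 replicates are red and vehicle replicates blue, with lines for means and bars for 1 SD (n = 3 each). Alpha over beta stays between 1.05 and 1.20, the Hbb-bt share is below 4.5% in GSK3326595 and above 5.9% in vehicle, and Slc4a1 is under 1 per 1000 in GSK3326595 replicates 1 and 3 only.

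Alas2, the erythroid form of the first enzyme of haem synthesis (chrX:150547375-150570638, plus strand), followed globin in part, with other libraries as its highest and lowest. It had 8.47, 14.3 and 5.74 CPM in GSK3326595 against 6.84, 9.04 and 11.1 CPM in vehicle, and GSK3326595 held both the lowest and the highest library. The means were 9.50 ± 4.37 and 8.98 ± 2.10 CPM (SD, n = 3 each). The log2 difference by edgeR was 0.08 ± 0.39, with an adjusted p of 0.971, and it turned to -0.29 without GSK3326595 replicate 2. Set against globin, Alas2 made 33.4, 40.9 and 27.4 counts per 1000 globin counts in GSK3326595 and 34.0, 30.7 and 22.8 in vehicle, a factor of 1.79 from lowest to highest.

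The haem enzymes that most cells share overlapped between the groups, while 14.4% of all genes tested did not. Of 8 listed, all were tested and 0 had an unadjusted p under 0.05 by edgeR, against 9.26% of all genes. Of the 8, 7 had a positive and 1 a negative log2 difference, with a median of 0.18. Alad, the second enzyme of the pathway, had 134 CPM on average in GSK3326595 and 74.3 CPM in vehicle (log2 difference 0.85 ± 0.45, edgeR adjusted p = 0.613). Alas1, the form used by the liver, had 41.9, 210 and 57.9 CPM in GSK3326595 and 67.6, 64.3 and 62.5 CPM in vehicle, so that GSK3326595 replicate 2 lay above and GSK3326595 replicates 1 and 3 below every vehicle library (log2 difference 0.67 ± 0.58, edgeR adjusted p = 0.764). Ppox differed by 0.33 ± 0.25 and Cpox by 0.17 ± 0.23 on the log2 scale, both later steps of the pathway.

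Slc4a1, which encodes band 3, the chloride and bicarbonate exchanger of the red cell membrane (chr11:102348824-102366203, minus strand), varied far more than globin. It had 5, 163 and 3 counts in GSK3326595 replicates 1, 2 and 3, or 0.161, 5.05 and 0.108 CPM, against 39, 46 and 208 counts, or 1.24, 1.56 and 6.21 CPM, in vehicle. The exact Poisson 95% intervals for counting error reached from 0.0223 to 0.376 CPM over GSK3326595 replicates 1 and 3 and from 0.884 to 2.09 CPM over vehicle replicates 1 and 2; they hold no variation between samples, and the 4 libraries are those with the lowest counts. GSK3326595 replicate 2 and vehicle replicate 3 stood above all 4. Per 1000 globin counts, Slc4a1 made 0.636, 14.5 and 0.517 in GSK3326595 and 6.17, 5.32 and 12.8 in vehicle.

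The group difference in Slc4a1 depended on the tool and on which libraries were in the fit. With all 6 libraries the log2 difference was -0.75 ± 1.38 (edgeR adjusted p = 0.923), and -2.22 by limma-voom (adjusted p = 0.676). Without GSK3326595 replicate 2 it was -4.39 ± 1.01, with an unadjusted p of 0.00513 and an edgeR adjusted p of 0.459. Without vehicle replicate 3 it was 0.36 ± 1.53, and without GSK3326595 replicate 1 or 3 it shrank to -0.22 and -0.19. With both GSK3326595 replicate 2 and vehicle replicate 3 left out, a choice made after seeing the data, it was -3.29 ± 0.51 (edgeR adjusted p = 0.156).

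**Figure D3:**
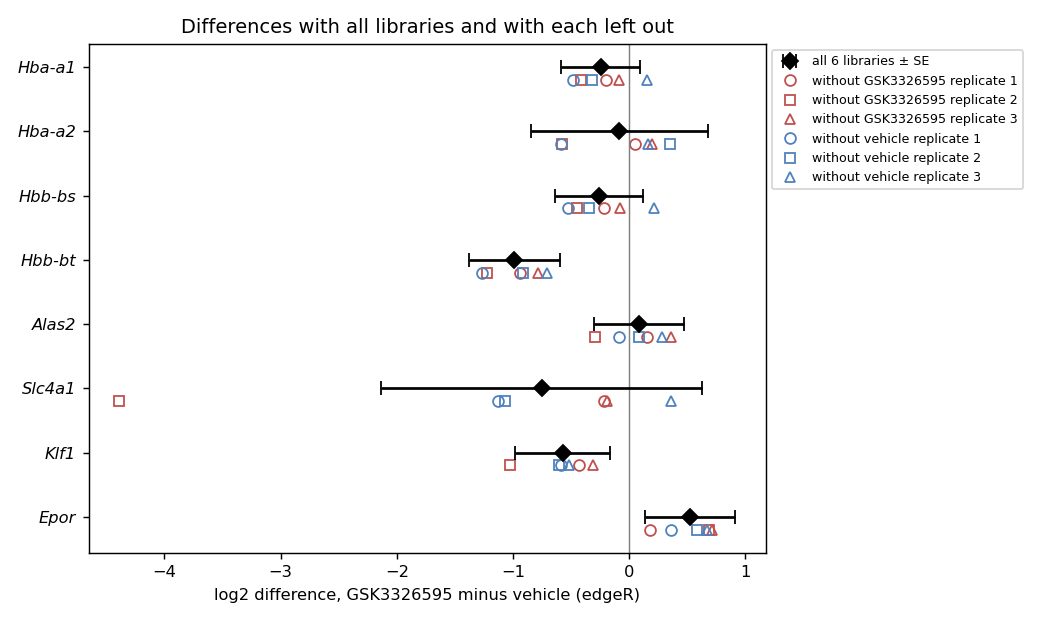
Log2 difference, GSK3326595 minus vehicle, of each gene by edgeR with all 6 libraries (black diamonds, bars 1 SE) and with each library left out (open symbols below). Slc4a1 moves to -4.39 without GSK3326595 replicate 2, and the signs of Hba-a1 and Hbb-bs turn without vehicle replicate 3.

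Klf1, the transcription factor that activates adult beta globin (chr8:84901928-84905291, plus strand), was even across vehicle and uneven in GSK3326595. It had 0.999, 2.02 and 0.794 CPM in GSK3326595 and 1.88, 1.84 and 1.97 CPM in vehicle, that is 22 to 65 counts against 54 to 66 counts. GSK3326595 replicate 2 was the highest of all 6, and GSK3326595 replicates 1 and 3 were the lowest. The means were 1.27 ± 0.654 and 1.90 ± 0.0675 CPM (SD, n = 3 each). The log2 difference by edgeR was -0.57 ± 0.41, with an adjusted p of 0.712. Without GSK3326595 replicate 2 the difference was -1.03 ± 0.33 (edgeR adjusted p = 0.459), and with vehicle replicate 3 left out as well -0.997 ± 0.38 (edgeR adjusted p = 0.367).

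Epor, the receptor through which erythropoietin keeps erythroid precursors alive (chr9:21958897-21963506, minus strand), was highest in GSK3326595 replicate 1, unlike the other genes. It had 1.87, 1.09 and 0.974 CPM in GSK3326595 and 0.701, 0.986 and 1.04 CPM in vehicle. The log2 difference was 0.52 ± 0.39 (edgeR adjusted p = 0.721), and 0.18 without GSK3326595 replicate 1. Likeness to summed globin is a description over the 6 libraries, which share their depth and scaling. Pearson's r was 0.82 for Alas2, 0.78 for Slc4a1, 0.56 for Klf1 and 0.18 for Epor. By rank, Epor was no less like globin than Klf1. Spearman's rho was 0.89 for Alas2, 0.83 for Slc4a1, 0.6 for Klf1 and 0.6 for Epor.

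Per length of annotated exon, which allows genes to be compared, Hba-a1 averaged 175 ± 44.0 CPM per kb in GSK3326595 and 208 ± 86.0 in vehicle, and Hbb-bs 158 ± 43.5 and 189 ± 90.6 (SD, n = 3 each). These neighbours lay within each other's spread. Next came Hbb-bt with 7.64 ± 2.46 and 15.2 ± 5.74 CPM per kb and Alas2 with 3.95 ± 1.82 and 3.74 ± 0.875. Hba-a2 had 2.71 ± 1.47 and 2.88 ± 2.07 CPM per kb, within the spread of Alas2. Klf1 had 0.830 ± 0.428 and 1.24 ± 0.0441 CPM per kb, Epor 0.658 ± 0.245 and 0.458 ± 0.0924, and Slc4a1 0.363 ± 0.581 and 0.614 ± 0.568, a group whose order changed between GSK3326595 and vehicle.

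Genes of other red cell membrane and skeleton proteins often had the same 2 high libraries as Slc4a1. Of 18 such genes, 11 were tested, 7 being too low. By edgeR 0 passed the adjusted threshold in either direction, against 0% of all genes. By DESeq2 1 did (Xk), against 1.69%. At an unadjusted p under 0.05 by edgeR, 1 was higher (Xk) and 1 lower (Dmtn), against 5.45% and 3.81% of all genes, and the median log2 difference was -0.09. GSK3326595 replicate 2 and vehicle replicate 3 held the 2 highest levels of 4 of the 11 tested, or 36.4%, against 4.51% of all genes tested. Among the 7 too low to test they did so in all 7, against 9.24% of 4414 untested genes with at least 10 counts in sum. The filter itself drops genes with counts in only 2 libraries, and the 4414 were not matched to the 7 for level. The same libraries held the 2 highest levels of 5 of 10 endothelial markers, or 50%, so the pattern was not confined to red cell genes. They did so in 2 of 12 macrophage markers (Clec4f and Vsig4), or 16.7%, and 1 of 10 hepatocyte markers (Cyp2e1), or 10%. Among B and plasma cell markers it was 1 of 7 tested (Cd79a). It was 0 of 8 tested T cell markers and 0 of 7 tested neutrophil markers. The pair of libraries was picked after erythroid values were seen, and these shares carry no test.

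Epb42, which ties band 3 to the skeleton, had 1, 23 and 0 counts in GSK3326595 and 1, 6 and 23 counts in vehicle. GSK3326595 replicate 2 and vehicle replicate 3 stood above the other 4 libraries. This gene was chosen after its values were seen.

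The 4 genes of smallest p in that list behaved otherwise. Xk, a membrane protein of the Kell complex, had 9.35, 6.64 and 9.09 CPM in GSK3326595 and 3.76, 4.05 and 4.54 CPM in vehicle (log2 difference 1.02 ± 0.25, unadjusted p = 0.00526, edgeR adjusted p = 0.458), with no overlap, and DESeq2 called it (adjusted p = 0.0181). Dmtn, which bundles actin under the membrane, averaged 1.47 and 3.75 CPM (-1.35 ± 0.46, edgeR adjusted p = 0.522). Aqp1, a water channel that endothelium also makes, averaged 32.9 and 15.8 CPM (1.05 ± 0.53, edgeR adjusted p = 0.591), and Epb41, a skeletal linker found in many tissues, 137 and 166 CPM (-0.28 ± 0.18, edgeR adjusted p = 0.676).

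**Figure D4:**
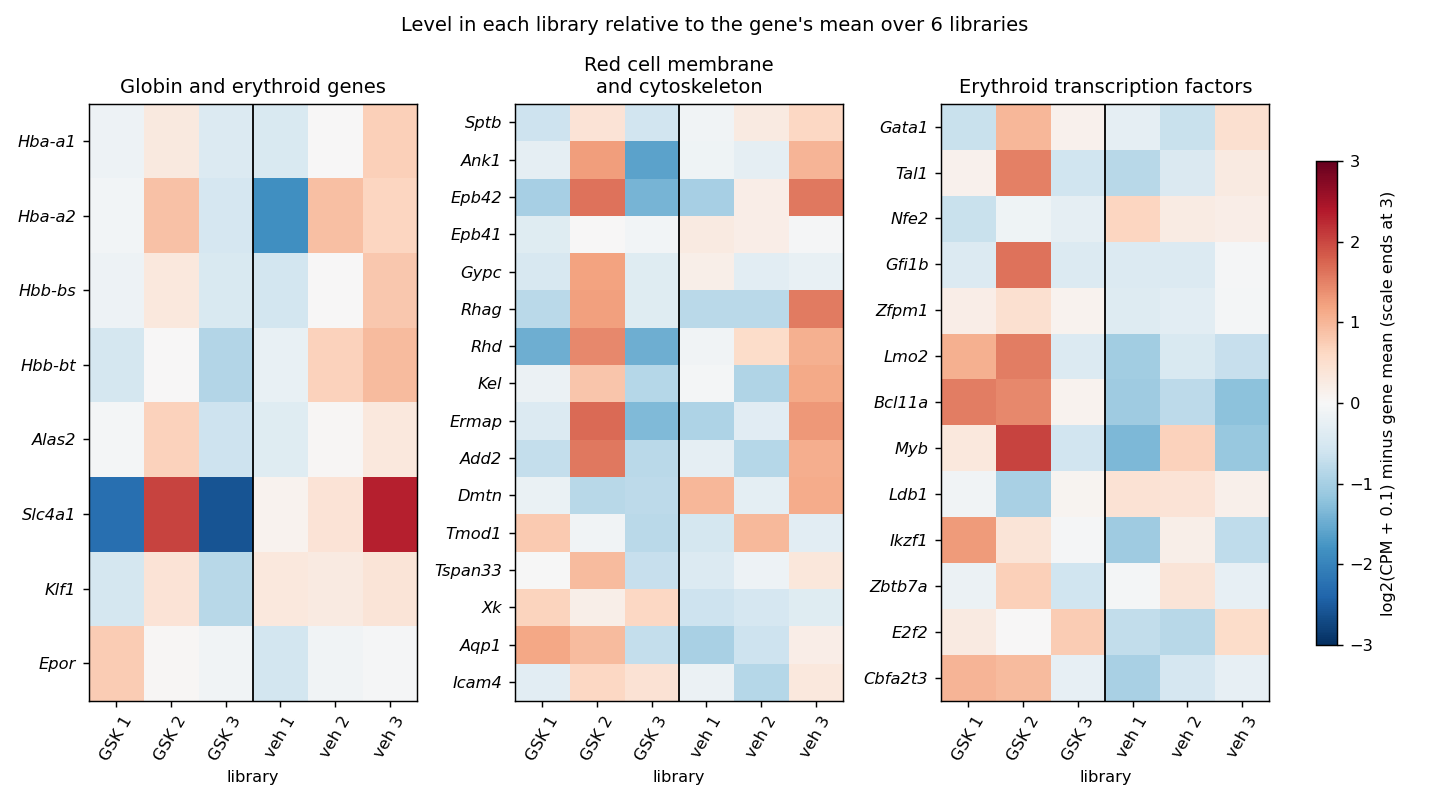
Level of each gene in each library as log2(CPM + 0.1) minus the gene's mean over the 6 libraries, red for above and blue for below, with GSK3326595 replicates left of the line and vehicle replicates right. Columns GSK 2 and veh 3 are red for Slc4a1, Ank1, Epb42, Rhag, Rhd, Ermap and Add2, while GSK 1 and GSK 3 are blue for most of these.

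Genes of late erythroblasts and reticulocytes held both abundant genes that other cells also use and genes near the limit of detection. Of 20 listed, 14 were tested and 0 passed the adjusted threshold by edgeR; at an unadjusted p under 0.05, 1 was higher and 0 lower, against 5.45% and 3.81% of all genes (median log2 difference 0.14). That gene was Pklr, the pyruvate kinase of red cells and liver, with 83.5, 109 and 67.2 CPM in GSK3326595 and 30.9, 23.4 and 35.7 CPM in vehicle (1.53 ± 0.25, unadjusted p = 0.000583, edgeR adjusted p = 0.455; DESeq2 adjusted p = 0.000117). Fam210b differed by 0.93 ± 0.41, Sec62 by -0.28 ± 0.16 and Car2, a carbonic anhydrase, by 2.16 ± 1.18, none past the adjusted threshold. Car2 had 33.3 CPM in GSK3326595 replicate 2 and 1.43 to 5.22 CPM in the other 5 libraries. Hemgn, an erythroid nuclear protein too low to test, had 2, 25 and 2 counts in GSK3326595 and 2, 6 and 37 counts in vehicle. Car1, the red cell carbonic anhydrase, had 0, 59 and 2 counts against 2, 3 and 22 counts. Hemgn and Car1, also picked after their values were seen, had the same pair of high libraries. That pair was highest in 7 of the 20 listed genes, 2 of them among the 14 tested, and not in the other 13.

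Erythroid transcription factors were a mixed list, since several also act in lymphocytes, dendritic cells or endothelium. Of 13 listed, 11 were tested and 0 passed the adjusted threshold; 4 were higher and 0 lower at an unadjusted p under 0.05, against 5.45% and 3.81% of all genes, with a median log2 difference of 0.96. The 4 were Bcl11a, which silences fetal globin and also acts in B cells, with 1.99 against 0.364 CPM (2.44 ± 0.50), Lmo2 with 11.5 against 3.62 CPM (1.67 ± 0.50), Cbfa2t3 (1.33 ± 0.46) and Zfpm1 (0.53 ± 0.19), given as GSK3326595 before vehicle. Their edgeR adjusted p ran from 0.455 to 0.522, and DESeq2 called Bcl11a alone (adjusted p = 0.00521), against 1.69% of all genes. T cell markers moved with them: of 12 listed, all 8 tested were higher at an unadjusted p under 0.05, against 5.45% of all genes. Their median log2 difference was 2.57. By edgeR 0 passed the adjusted threshold, against 0% of all genes, and DESeq2 called 7, against 1.69%. The 12 summed to 17.0 to 36.5 CPM in GSK3326595 and 5.73 to 8.22 CPM in vehicle, with none at 0 in all libraries. Markers of B and plasma cells summed to 4.29 to 16.3 CPM in GSK3326595 and 2.79 to 4.59 CPM in vehicle, with 3 of 7 tested higher at that unadjusted p (Ighm, Igkc and Jchain) and none at 0 in all libraries. Their part in the list's values was not tested.

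In 5 factors of the same list the groups did not overlap. Bcl11a, Lmo2 and Zfpm1 were the 3 higher, against 6.72% of all genes, and Nfe2 and Ldb1 the 2 lower, against 7.68%. Nfe2, a factor of erythroid cells and megakaryocytes, had 17, 27 and 21 counts in GSK3326595 and 47, 33 and 36 counts in vehicle (log2 difference -0.78 ± 0.34, edgeR adjusted p = 0.549). Ldb1, a cofactor used in many tissues, differed by -0.60 on the log2 scale and did not pass the threshold.

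The remaining lineage factors described here were chosen after their values were seen. Gata1, the master regulator of erythroid genes, had 0, 7 and 2 counts in GSK3326595 and 1, 0 and 4 counts in vehicle. Gfi1b, a repressor of the same lineage, had 0, 10 and 0 counts in GSK3326595 and 0, 0 and 1 in vehicle. Tal1, which endothelium also expresses, had 0.903, 2.51 and 0.505 CPM in GSK3326595 against 0.414, 0.578 and 1.01 CPM in vehicle. GSK3326595 replicate 2 held the highest count of each of these 3, though not of Nfe2. Endothelial markers summed to 261, 291 and 151 CPM in GSK3326595 and 129, 189 and 210 CPM in vehicle, the highest sum being in that library too. Kdr, Tek, Clec4g, Eng and Egfl7 were highest there, while Pecam1, Cdh5, Erg, Stab2 and Lyve1 were highest in other libraries. Of these 10, 8 had positive differences and 0 passed the adjusted threshold by edgeR, against 0% of all genes. None of these endothelial markers was at 0 in all libraries. Their part was not tested.

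Genes of erythropoietin signalling and of iron supply to red cells had negative log2 differences in 9 of the 13 tested and positive ones in 4, and 0 passed the adjusted threshold by edgeR. Of 14 listed, 13 were tested; 2 were lower and 0 higher at an unadjusted p under 0.05, against 3.81% and 5.45% of all genes (median log2 difference -0.31). Cish, a feedback inhibitor induced by STAT5, had 7.87, 5.37 and 2.57 CPM in GSK3326595 and 18.3, 20.5 and 10.7 CPM in vehicle, with no overlap, as in the 7.68% of all genes that were lower in this way (-1.64 ± 0.46, unadjusted p = 0.0100, edgeR adjusted p = 0.485; DESeq2 adjusted p = 0.0445). Tfrc, the transferrin receptor, had 142, 222 and 312 CPM in GSK3326595 and 576, 587 and 289 CPM in vehicle (-1.10 ± 0.39, edgeR adjusted p = 0.522). Steap3, the endosomal iron reductase, differed by -1.95 ± 0.88 and Flvcr1, a haem exporter, by 0.81 ± 0.35. Hepatocytes also express Tfrc, Steap3 and Cish. Epo itself had 0 counts in all 6 libraries.

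Haemoglobin and haem clearance, the work of hepatocytes and resident macrophages, gave 2 of 11 genes higher and 0 lower at an unadjusted p under 0.05, against 5.45% and 3.81% of all genes, and 0 past the adjusted threshold. Blvrb, a biliverdin reductase abundant in red cells, averaged 27.2 CPM in GSK3326595 and 16.7 CPM in vehicle (log2 difference 0.70 ± 0.25, edgeR adjusted p = 0.522), and Spic, a factor of iron-recycling macrophages, 17.9 and 8.83 CPM (1.02 ± 0.37, edgeR adjusted p = 0.522). Neither overlapped between groups, as in the 6.72% of all genes that were higher in this way. Hmox1, which splits haem, averaged 66.2 and 34.6 CPM (0.93 ± 0.60, edgeR adjusted p = 0.679), with its highest value in GSK3326595 replicate 1. Cd163, the scavenger receptor for haemoglobin, had 1.93, 4.99 and 1.37 CPM in GSK3326595 and 2.84, 2.99 and 10.3 CPM in vehicle (log2 difference -0.96 ± 0.70, edgeR adjusted p = 0.719). Its highest library was vehicle replicate 3 and the next was GSK3326595 replicate 2. Macrophage markers, where 0 of 12 passed, summed to 1730, 611 and 635 CPM in GSK3326595 and 544, 788 and 761 CPM in vehicle. The highest sum was in GSK3326595 replicate 1, and no marker was at 0 in all libraries. Clec4f and Vsig4 did not follow the sum. Clec4f had 4, 758 and 149 counts in GSK3326595 and 33, 5 and 815 counts in vehicle. Vsig4 had 4, 165 and 60 counts against 71, 39 and 369 counts. Only these 2 of the 12 had their 2 highest levels in GSK3326595 replicate 2 and vehicle replicate 3. The part of macrophage markers in the values of the clearance genes was not tested.

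Over the 6 libraries, 17004 other genes tested were ranked by how like summed globin they were, by Pearson's r of log2 levels, and 4 of the 5 most like are named here: Ifi27l2a (0.98), Fbxl22 (0.98), Gm17530 (0.96) and Gm43332 (0.95). Only 24 genes, 0.141%, had an r above 0.9. These likenesses are a description over 6 libraries that share their depth and scaling.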

How the data were processed

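RNA from the tumors was sequenced from stranded libraries of total RNA, as the labels' protocols state. The authors deposited expected counts per gene with no scaling to depth. Their processing notes list mm10, cutadapt, STAR, Picard and RSEM, without versions; for the gene annotation, none is named in the sources used here. Values that were not whole (12.3%) were rounded. The 3 GSK3326595 and 3 vehicle libraries were compared by edgeR 4.0.16 in R 4.3.3 (two-sided quasi-likelihood test, TMM, filterByExpr with a minimum count of 10, which left 17012 genes). P-values were Benjamini-Hochberg adjusted over all these genes, with a threshold of 0.05, and SE is the absolute log2 difference over the square root of F. Alternatives were limma-voom (limma 3.58.1), DESeq2 1.42.0, other scaling and filters, summed copies, a replicate block and left-out libraries. The fits were tested on simulated data. Likeness to globin used log2 CPM (prior count 2; log2 of CPM + 0.1 among the members). Coordinates and exon lengths are from GENCODE vM21. Members and gene lists were chosen with earlier results of these data known. Named genes were the members, the 4 of smallest p in each further list and the 5 most like globin, with counts of 5 or fewer named in full; Epb42, Hemgn, Car1, Gata1, Gfi1b and Tal1 were added after their values were seen. Some genes are not reported here. Tent5c, Erfe, Flvcr1 and Tf stand in the table as Fam46c, Fam132b, Mfsd7b and Trf.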

Additional observations from a re-analysis of the deposited data

How the results depend on the processing

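None of the 8 member genes was called under any alternative, DESeq2 giving no p-value for Slc4a1, and edgeR and limma-voom called 0 of all genes under each of theirs. DESeq2 called 286 of all genes; what causes this was not tested. Leaving out 1 library at a time gave 0 calls among all genes and among the members, and ratios of globin shares of 0.713 to 1.20. Over those fits the log2 difference lay between -0.48 and 0.16 for Hba-a1, -0.58 and 0.35 for Hba-a2, -0.53 and 0.22 for Hbb-bs, -0.29 and 0.36 for Alas2, and -4.39 and 0.36 for Slc4a1. The positive ends for Hba-a1, Hbb-bs and Slc4a1 came without vehicle replicate 3. Alas2 also turned to -0.08 without vehicle replicate 1, and to -0.12 with both GSK3326595 replicate 2 and vehicle replicate 3 left out, a choice made after seeing the data. Hba-a2 also turned to 0.05 and 0.20 without GSK3326595 replicates 1 and 3, to 0.17 without vehicle replicate 3, and to 0.27 with limma-voom. Hbb-bt, Klf1 and Epor kept their signs throughout. Slc4a1 was at -2.22 with limma-voom.

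Same-numbered libraries did not all deviate together (r of -0.07, 0.07 and 0.32 for numbers 1, 2 and 3). GSK3326595 replicate 1 and vehicle replicate 2, of unlike numbers, also had an r of 0.32. With 3 libraries in each group these values cannot tell whether same-numbered libraries were paired. The replicate block called 0 genes, and gave log2 differences of 0.18 for Hba-a2 and -2.21 for Slc4a1. Counts of Slc4a1 in GSK3326595 replicates 1 and 3, and of Gata1 in most libraries, are too few to resolve small differences.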

Other observations

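Platelet and megakaryocyte genes, another set that blood carries, were low throughout. Of 14 listed, 8 were tested, and the 14 summed to 22.0, 24.9 and 12.9 CPM in GSK3326595 against 15.5, 27.6 and 22.1 CPM in vehicle, so the groups overlapped. By edgeR 1 was higher at an unadjusted p under 0.05, against 5.45% of all genes, namely Gp5, a subunit of the platelet von Willebrand receptor, with 0.681 against 0.294 CPM (log2 difference 1.20 ± 0.50, adjusted p = 0.534), given as GSK3326595 before vehicle, and 0 passed the adjusted threshold. Ppbp, a platelet chemokine, differed by -1.18 ± 0.54, Clec1b by 0.66 ± 0.44 and Gp1ba by -0.42 ± 0.30.

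In sum, neutrophil markers were highest in another library than the erythroid genes. The 13 markers summed to 14.3, 19.3 and 14.9 CPM in GSK3326595 and 30.3, 292 and 20.2 CPM in vehicle, with vehicle replicate 2 far above the rest. S100a9, a subunit of calprotectin, had 16, 88 and 1 counts in GSK3326595 and 80, 2519 and 24 counts in vehicle. GSK3326595 replicate 2 was the second highest library for S100a9 and some of the other markers, though not for all. Globin in vehicle replicate 2 was lower than in GSK3326595 replicate 2 and vehicle replicate 3 and higher than in the other 3 libraries, at 294 CPM. Of 7 neutrophil markers tested, 1 was lower at an unadjusted p under 0.05 by edgeR, against 3.81% of all genes, and 0 passed the adjusted threshold. It was Prtn3, a neutrophil protease (-1.70 ± 0.56, edgeR adjusted p = 0.522). Prtn3 had 5.96, 2.20 and 11.2 CPM in GSK3326595 and 22.5, 24.3 and 16.2 CPM in vehicle, so vehicle replicate 2 did not stand apart in it. Ltf differed by -3.93 ± 1.66, S100a9 by -4.74 ± 2.04 and S100a8 by -4.68 ± 2.24, each with its highest level in vehicle replicate 2.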
